A study of Mus musculus with 12 samples.

Results

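Collagens are the chains that build most of the solid matrix outside cells. Collagen genes were taken here as every gene whose symbol is Col, a number, a and a number, and for which the arrays hold a probe with a RefSeq transcript. This rule gave 39 genes of the 17016 genes with a named probe, out of 44 genes of that form in RefSeq. Col6a3, Col6a5, Col12a1, Col20a1 and Col22a1 had no such probe and were not analysed here. The 39 genes were divided by the form of their product into 11 fibrillar chains, 9 network chains, 6 FACIT chains (fibril-associated collagens with interrupted helices) and 13 other chains. A total of 30 passed the filter for a measurable signal, namely 10 fibrillar, 7 network, 4 FACIT and 9 other chains, and were tested among 12435 genes.

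RNA came from a pair of mouse embryonic fibroblast lines that differ in focal adhesion kinase (FAK, encoded by Ptk2), a tyrosine kinase of the adhesions that tie cells to matrix. FAK knockout cells (KO) were compared with FAK rescue cells, the clone DA2. Dishes of 10 cm received 410000 cells for sparse or 8200000 cells for dense cultures of each line, which were collected 24 h later. Each of the 4 groups had 3 cultures, 1 on each of 3 days, and each culture was hybridised to 1 one-colour array. Both lines grew in DMEM with Glutamax and serum. The rescue medium alone also held hygromycin B at 135 µg/ml and non-essential amino acids, so that line and medium cannot be told apart. The knockout line is 1 line and the rescue line 1 clone, so the spread between cultures is that of a line on different days.

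Fibrillar chains assemble into the cable-like fibrils that give skin, tendon and bone their strength, and fibroblasts are their main source. Network chains form sheets, of which the type IV sheet of basement membranes is the best known. FACIT chains sit on the surface of fibrils made by the fibrillar chains. The remaining chains include the beaded filaments of type VI, the anchoring fibrils of type VII, the type XV and XVIII chains of basement membrane zones, and chains that span the cell membrane. A collagen molecule needs its partner chains, enzymes that hydroxylate and cross-link it, and proteases that trim its ends.

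All levels below are log2 processed signals minus the array's 75th percentile, so that 0 marks a signal equal to that percentile. A fold change is a difference of group means on this log2 scale, given with its standard error (SE, 3 cultures per group). A gene rose or fell where the adjusted p of limma was under 0.05. Levels of different genes rest on different probes and were not compared with each other. The 75th percentile of the arrays lay between 294 and 1594 intensity units, and 23150 to 26183 of 41174 probes per array were well above background. Cultures of a group correlated at 0.982 to 0.992 across genes. Of a pair of Ptk2 probes, one differed between KO and rescue by -0.11 ± 0.18 at low density (adjusted p = 0.648) and by -0.072 ± 0.18 at high density (adjusted p = 0.763). The second Ptk2 probe was lower in KO, by -2.08 ± 0.31 (adjusted p = 0.000167) and -0.93 ± 0.31 (adjusted p = 0.021). Whether these probes lie within the deleted sequence was not known, so they do not check the labels. In the deposited value table, unlike in the array files used here, the day 3 columns match the arrays of the other line at the same density.

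Of the fibroblast markers, 7 to 10 of 11 were well above background on all arrays of a group. Twist2 was undetected in KO cells alone, and Lum in KO and in sparse rescue cells. Thy1 was undetected in rescue and in sparse KO cells, and Dpt in dense KO cells. All 8 mesothelial markers were detected in KO cells, while Wt1, Upk3b and Lrrn4 were undetected in rescue cells. The summed mesothelial level, in multiples of the 75th percentile, was 25.1 to 46.0 in rescue cultures and 154 to 215 in KO cultures, against 543 to 1153 and 158 to 213 for the fibroblast list. Smooth muscle markers were detected in every group (6 of 6), and at most 1 of 6 endothelial markers was. Of the 5 macrophage and leukocyte markers on the arrays, Csf1r and Cd14 were detected in every group, while Ptprc was undetected. The summed level of that list was 1.68 to 3.70 in rescue and 0.34 to 0.89 in KO cultures. Of 6 markers each, 2 or 3 chondrocyte, 2 osteoblast and 3 epithelial markers were detected in a group. The chondrocyte markers Matn1, Hapln1 and Cnmd were undetected in every group, and the summed level of that list was 3.27 to 4.66 in sparse and 6.35 to 8.39 in dense rescue cultures, against 1.74 to 2.12 and 0.41 to 0.66 in KO cultures. The epithelial sum was 0.27 to 1.88 in rescue and 8.76 to 26.8 in KO cultures, with Cldn4 undetected throughout. These lists move with the line, and their part in the collagen differences was not tested. In RNA from whole cultures, fewer cells of a kind and less RNA per cell cannot be told apart.

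The first comparison set the knockout against the rescue line. In sparse cells 15 of the 30 collagens fell and 4 rose in KO, while 25.6% of all genes tested fell and 23.2% rose. One of the 15 was Col17a1, which was well above background in neither sparse group, so 14 falls were measured. In dense cells 20 fell and 3 rose, against 29.7% and 31.9% of all genes. The median log2 fold change of the collagens was -0.82 in sparse and -1.5 in dense cells, beside 0.025 and 0.076 over all genes tested. With genes that had only a bound set to that bound, the collagen medians were -0.80 and -1.39. The filter bears on these counts, since Col11a1, Col27a1, Col9a3, Col15a1, Col17a1 and Col23a1 passed it through rescue cells alone and Col8a2 through KO cells alone. Of the 13 collagens whose mean signal over all 12 arrays lay above the 75th percentile, 8 fell and 2 rose in sparse cells, and 10 fell and 2 rose in dense cells.

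Scaling each array to the 7 spike-in probes of the labelling kit in place of its 75th percentile moved the median of all genes by -1.54 in the sparse and 0.78 in the dense comparison of the lines. It gave 1 collagen higher and 25 lower in sparse cells, and 6 higher and 12 lower in dense cells. Over all 12435 genes it called 9374 in sparse cells, 583 of them higher, and 6705 in dense cells, 5187 of them higher. Scaling to each array's median gave 3 higher and 19 lower in sparse cells, with a shift of -0.30 over all genes. Such scalings move all genes of an array by the same amount, so the distance of a collagen from the median gene stays as given. The 14 genes with a measured fall in sparse cells also fell in dense cells, and Col4a1, Col4a2 and Col8a2 rose at both, except that Col4a1 and Col4a2 had negative values in sparse cells with spike-in scaling. Groups did not overlap for 23 collagens in sparse and 25 in dense cells, where 58.9% and 67.1% of all genes did not. Every called collagen had the same sign on each of the 3 days, and on the single slide that held arrays of both lines. The calls were made from these same days and that slide, so the signs are not a separate check. On the other slides line and slide cannot be told apart.

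**Figure D1:**
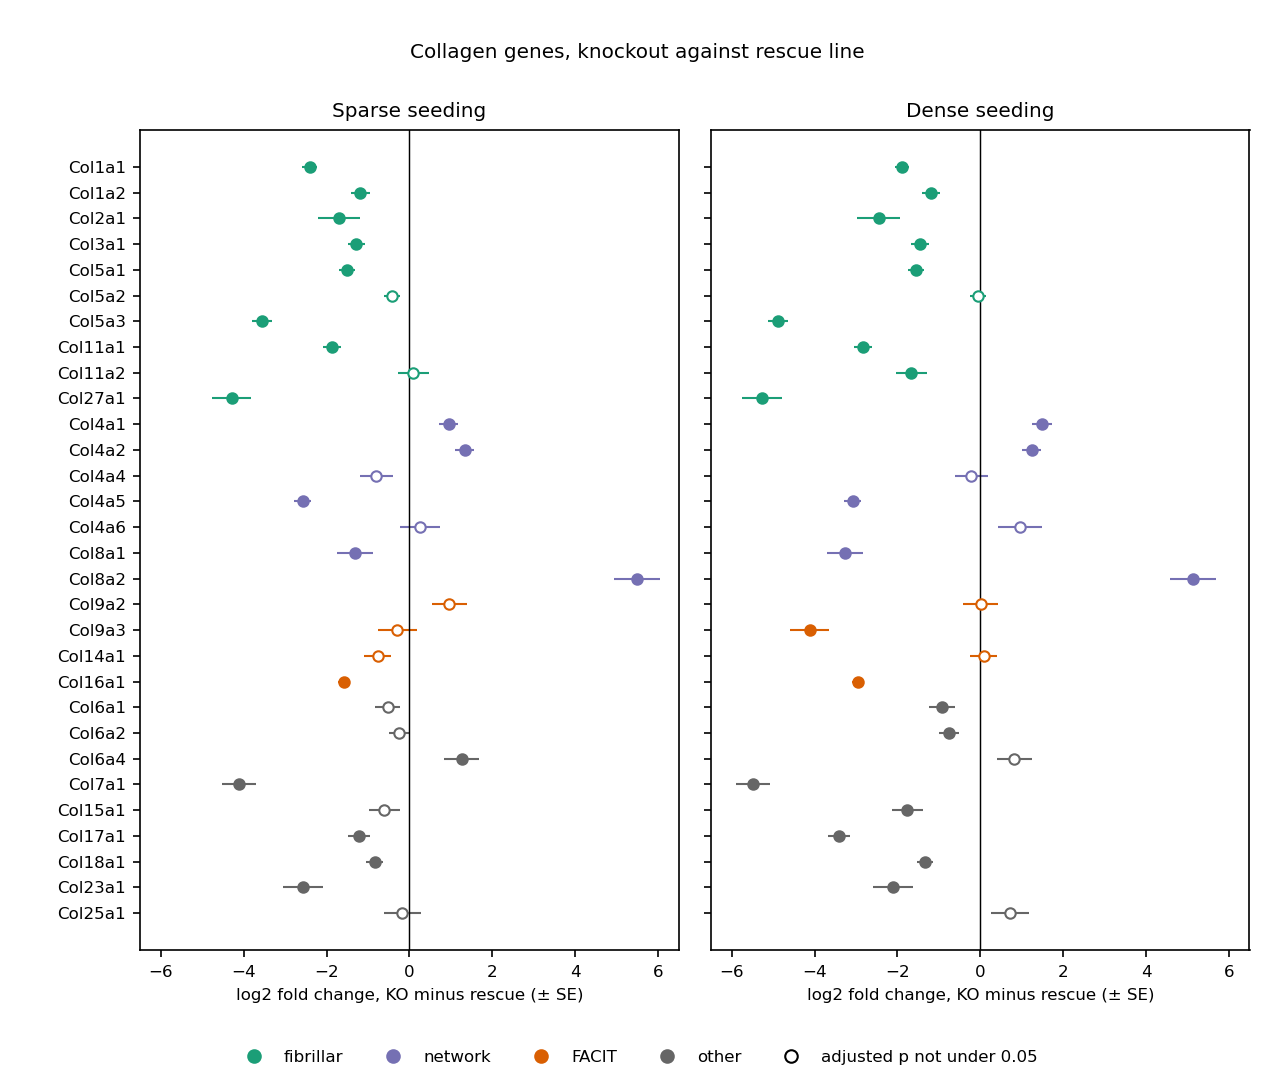
Log2 fold change of KO against rescue for the 30 tested collagens in sparse cells (left) and dense cells (right), with SE as bars (3 cultures per group). Filled points passed an adjusted p of 0.05, among them Col17a1 in sparse cells, where neither group was well above background. Fibrillar chains lie left of 0 except Col11a2 in sparse cells, while Col4a1, Col4a2 and Col8a2 lie to the right at both densities. With spike-in scaling Col4a1, Col4a2 and Col6a4 lie left of 0 in sparse cells and Col6a2 right of 0 in dense cells.

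Fibrillar chains made up the class with most falls. In KO, 8 of 10 tested fibrillar chains fell in sparse cells and 9 of 10 in dense cells, and none rose. Of all genes tested, 25.6% fell in sparse and 29.7% in dense cells. The median log2 fold change of the fibrillar chains was -1.61 and -1.78. With spike-in scaling 10 of 10 fell in sparse and 5 of 10 in dense cells, and none rose. These counts rest on the brightest probe of each gene. Second probes of Col5a3 and Col2a1 were above 0 at both densities, and that of Col11a2 was called higher in sparse cells. Col11a1 and Col27a1 passed the filter through rescue cells alone. The chain that fell at neither density was Col5a2, at -0.42 ± 0.18 in sparse and -0.055 ± 0.18 in dense cells, although its partner Col5a1 fell at both.

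Col1a1 and Col1a2 encode the partner chains of type I collagen, the main protein of skin, tendon and bone. On days 1, 2 and 3, in that order here and below, Col1a1 stood at 7.38, 7.33 and 7.30 in sparse rescue cells, at 7.19, 7.68 and 7.14 in dense rescue cells, at 5.08, 4.85 and 4.84 in sparse KO cells, and at 5.51, 5.52 and 5.30 in the dense ones. All rescue cultures lay above all KO cultures at either density. Col1a1 differed between KO and rescue by -2.41 ± 0.18 (adjusted p = 3.22e-07) in sparse cells, 5.31-fold lower, and by -1.89 ± 0.18 (adjusted p = 2.04e-06) in dense cells, 3.71-fold lower. Col1a2 stood at 8.18, 8.66 and 8.54 in sparse rescue cells, at 8.16, 8.81 and 8.15 in dense rescue cells, at 7.17, 7.43 and 7.22 in sparse KO cells, and at 7.44, 6.98 and 7.13 in the dense ones. The groups of the lines again did not overlap. Col1a2 was lower in KO by -1.19 ± 0.22 (adjusted p = 0.000849) in sparse cells and -1.19 ± 0.22 (adjusted p = 0.000577) in dense cells, about the same at both densities. Col1a1 was covered by 3 probes, and all fell, with log2 fold changes from -2.03 to -2.87 in sparse cells and -1.89 to -4.12 in dense cells.

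Col3a1, the chain of type III collagen in soft and healing tissue, stood at 5.58, 5.97 and 6.26 in sparse rescue cells, at 7.17, 7.45 and 7.04 in dense rescue cells, at 4.48, 4.64 and 4.83 in sparse KO cells, and at 5.72, 5.97 and 5.62 in the dense ones. It was lower in KO by -1.29 ± 0.21 (adjusted p = 0.000281) in sparse and -1.45 ± 0.21 (adjusted p = 7.14e-05) in dense cells, and unlike the type I chains it rose with density in both lines. A second Col3a1 probe was also lower in KO, by -0.67 ± 0.19 (adjusted p = 0.0113) in sparse and -2.78 ± 0.19 (adjusted p = 1.51e-07) in dense cells. The promoter windows of Col1a2 and Col3a1 are shown because one gene was called for density in both lines and the other in neither. They come from RefSeq (GRCm38.p6), from 250 bases before to 50 bases after the annotated start, and capitals mark, on either strand, TATAAA (the letters of a TATA box), CCAAT (the box of that name), GGGCGG (a GC box) and GGAATG (the core that TEAD factors bind). Col1a2 lies at chr6:4505368-4505667 on the plus strand and Col3a1 at chr1:45311288-45311587 on the plus strand.
Col1a2: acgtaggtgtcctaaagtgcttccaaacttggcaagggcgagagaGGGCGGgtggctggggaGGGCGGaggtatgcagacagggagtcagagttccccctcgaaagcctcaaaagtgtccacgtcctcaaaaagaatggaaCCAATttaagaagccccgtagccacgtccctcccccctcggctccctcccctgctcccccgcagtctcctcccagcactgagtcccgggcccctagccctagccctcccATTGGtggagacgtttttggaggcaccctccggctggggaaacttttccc
Col3a1: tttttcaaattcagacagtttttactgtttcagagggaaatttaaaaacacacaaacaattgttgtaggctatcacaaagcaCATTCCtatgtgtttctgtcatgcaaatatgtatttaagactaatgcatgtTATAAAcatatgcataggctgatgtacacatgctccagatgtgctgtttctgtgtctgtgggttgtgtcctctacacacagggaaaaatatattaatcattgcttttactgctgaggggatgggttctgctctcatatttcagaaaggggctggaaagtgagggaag

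The Col1a2 window held GC and CCAAT boxes and the Col3a1 window TATAAA and GGAATG, and in neither do matches share bases. A window was at hand for 32 of the 39 collagens (35 windows), and not for Col14a1, Col1a1, Col26a1, Col2a1, Col4a3, Col5a2 and Col9a3. GGGCGG occurred in 62.9% of the collagen windows (22 of 35) and in 35.7% of all 32851 windows. For TATAAA the shares were 14.3% (5 of 35) and 13.6%, for CCAAT 37.1% (13 of 35) and 37.4%, and for GGAATG 11.4% (4 of 35) and 14.7%. A match describes the letters in the window and is not a measured site.

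Type V chains co-assemble with type I and limit fibril width. Col5a1 was lower in KO by -1.52 ± 0.19 (adjusted p = 4.45e-05) in sparse and -1.55 ± 0.19 (adjusted p = 2.51e-05) in dense cells. Col5a3, a chain of a minor type V form, stood at -0.76, -1.0 and -1.07 in sparse rescue cells, at -0.0029, -0.62 and 0.28 in dense rescue cells, at -4.70, -4.10 and -4.70 in sparse KO cells, and at -5.10, -4.98 and -4.90 in the dense ones. Every KO culture lay at least 3 log2 units below every rescue culture. Col5a3 was 11.8-fold lower in sparse KO cells, at -3.56 ± 0.24 (adjusted p = 1.73e-07), and 29.4-fold lower in dense KO cells, at -4.88 ± 0.24 (adjusted p = 7.85e-09). A second, dimmer Col5a3 probe did not show this and gave 1.70 ± 0.84 (adjusted p = 0.117) and 1.77 ± 0.84 (adjusted p = 0.0896), so both the size and the direction of this difference rest on 1 probe.

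Col2a1, Col11a1 and Col11a2 encode chains of cartilage fibrils. Col2a1 stood at -0.047, -1.1 and -1.18 in sparse rescue cells, at 2.19, 0.66 and 0.96 in dense rescue cells, at -2.09, -2.86 and -2.47 in sparse KO cells, and at -0.067, -1.74 and -1.73 in the dense ones. In each group the day 1 culture was the highest, and the lines did not overlap at either density. Col2a1 was lower in KO by -1.70 ± 0.51 (adjusted p = 0.0166) in sparse and -2.45 ± 0.51 (adjusted p = 0.00131) in dense cells. The sparse call was lost without the day 1 rescue culture (-1.33, adjusted p = 0.071) or the day 2 KO culture (-1.5, adjusted p = 0.0545). A second Col2a1 probe gave 0.079 ± 0.32 and 0.41 ± 0.32 with no call.

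Col11a1 stood at -3.40, -3.97 and -3.51 in sparse rescue cells, at -2.56, -2.81 and -2.70 in dense rescue cells, at -5.59, -5.41 and -5.50 in sparse KO cells, and at -5.22, -5.97 and -5.35 in the dense ones. Its KO signals were not well above background, apart from 1 of 3 dense cultures. Where no culture of a group was well above background, a fold change is given as a lower limit, from the bright group's mean against the dimmest signal that counted as measured. Col11a1 was at least 3.26-fold lower in sparse KO cells (adjusted p = 2.09e-05) and lower by -2.82 ± 0.22 (adjusted p = 4.15e-07) in dense cells, a value that includes KO signals not well above background in 2 of 3 cultures. Col11a2 fell in dense KO cells, by -1.67 ± 0.37 (adjusted p = 0.00213), and was at 0.087 ± 0.37 in sparse cells. Its second probe was 1.90 ± 0.72 (adjusted p = 0.0479) in sparse and 1.22 ± 0.72 (adjusted p = 0.167) in dense cells, opposite in sign in the latter.

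Col27a1, a fibrillar chain of developing cartilage and other tissues, stood at -2.47, -2.18 and -2.26 in sparse rescue cells, at -1.81, -1.64 and -1.43 in dense rescue cells, at -7.22, -7.18 and -5.41 in sparse KO cells, and at -6.24, -7.87 and -6.59 in the dense ones. No KO culture was well above background and every rescue culture was. Col27a1 was therefore at least 8.07-fold lower in sparse KO cells (adjusted p = 1.37e-05) and at least 19.2-fold lower in dense KO cells (adjusted p = 1.6e-06). The calls of Col27a1 were lost with normexp background correction, at -0.72 (adjusted p = 0.358) and -1.21 (adjusted p = 0.095). Col24a1, the remaining fibrillar chain, was well above background on 1 of 12 arrays and was not tested.

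**Figure D2:**
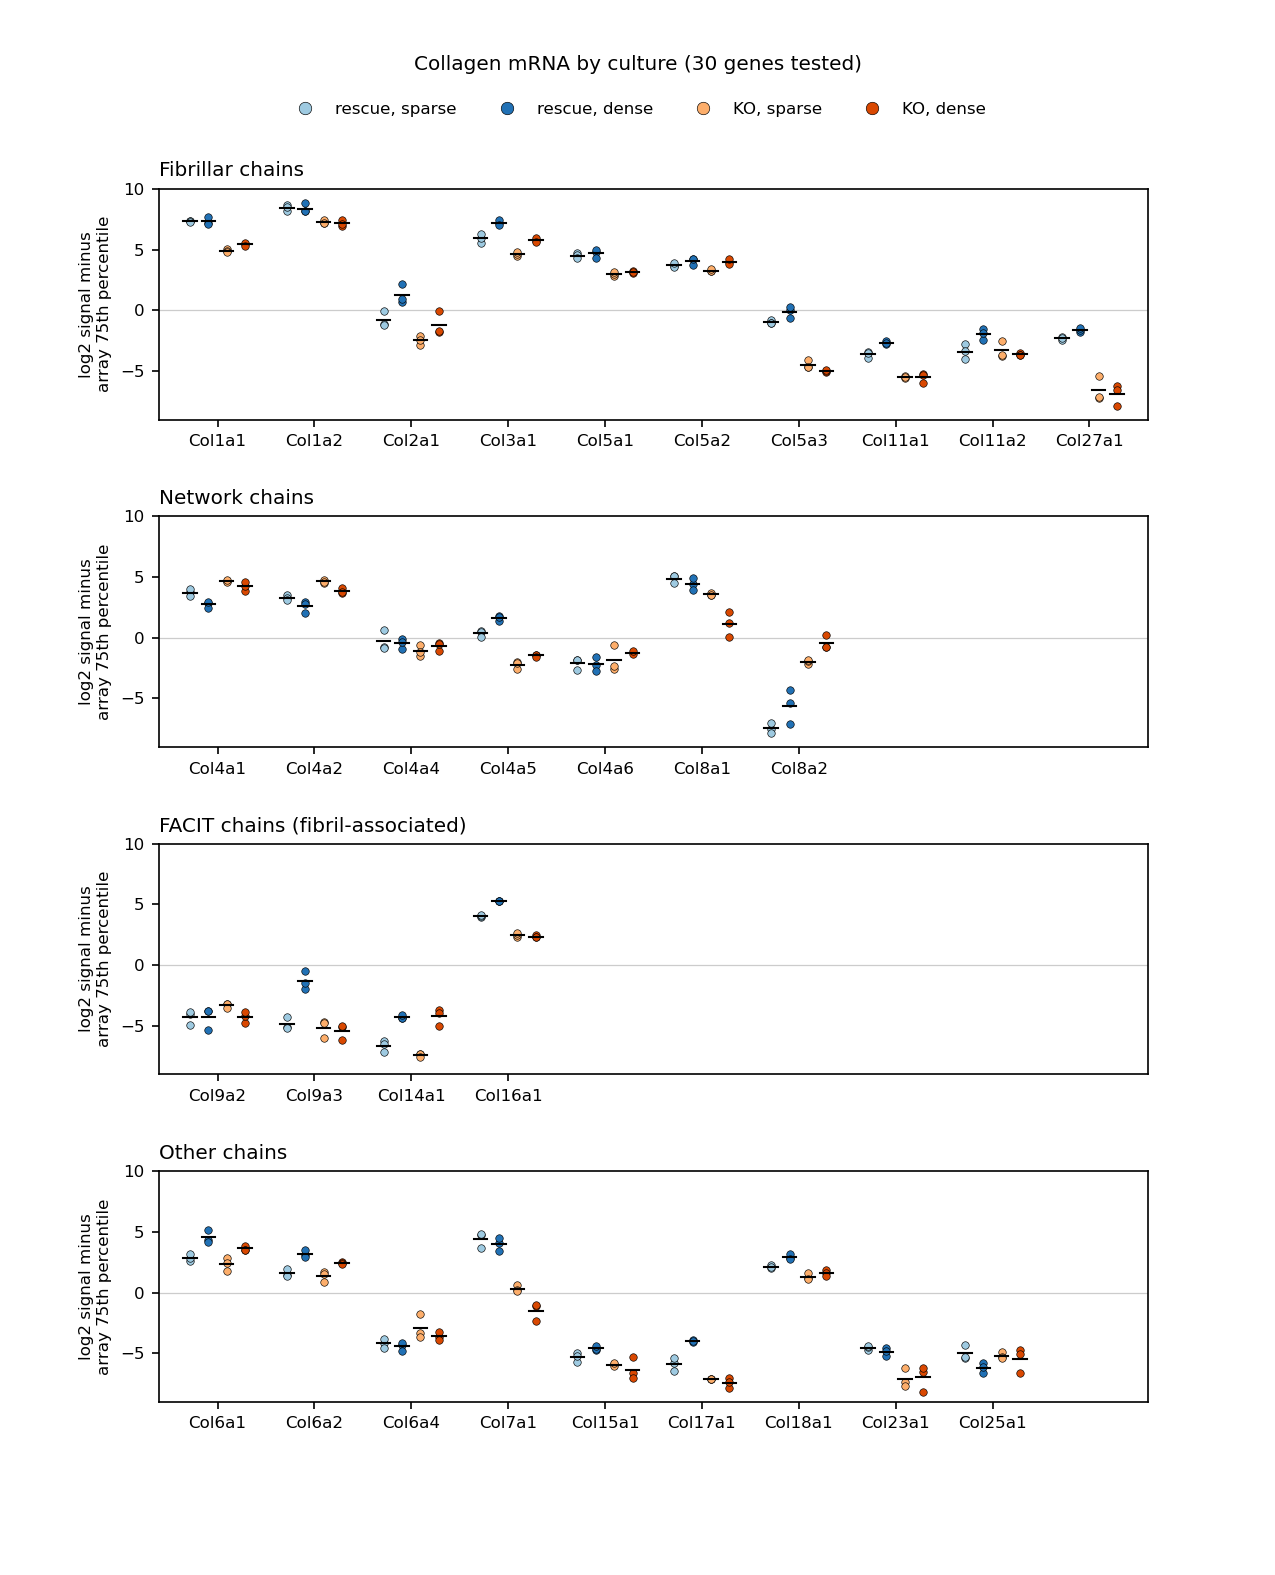
Level of each of the 30 tested collagens in every culture, as log2 signal minus the array's 75th percentile, in 1 panel per class. Points are cultures and bars are group means (3 cultures, or 2 for Col4a6 in dense KO cells). Fibrillar genes such as Col1a1 and Col5a3 separate by line, Col14a1 separates by density, and Col9a3 is high in dense rescue cultures alone.

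The network chains moved in both directions, with 3 higher and 2 lower of 7 tested in KO at each density, or 1 higher and 4 lower in sparse and 4 higher and 2 lower in dense cells with spike-in scaling. Of all genes tested, 23.2% rose and 25.6% fell in sparse cells, and 31.9% rose and 29.7% fell in dense cells. Col4a1 and Col4a2 encode the common type IV chains, which assemble together in almost all basement membranes. Their genes lie head to head, and the promoter windows are printed because both genes moved together in every comparison of the lines. The starts are 21 bases apart on opposite strands, and capitals mark the 78 bases that the windows share. Col4a1 lies at chr8:11312777-11313076 on the minus strand and Col4a2 at chr8:11312555-11312854 on the plus strand (GRCm38.p6).
Col4a1: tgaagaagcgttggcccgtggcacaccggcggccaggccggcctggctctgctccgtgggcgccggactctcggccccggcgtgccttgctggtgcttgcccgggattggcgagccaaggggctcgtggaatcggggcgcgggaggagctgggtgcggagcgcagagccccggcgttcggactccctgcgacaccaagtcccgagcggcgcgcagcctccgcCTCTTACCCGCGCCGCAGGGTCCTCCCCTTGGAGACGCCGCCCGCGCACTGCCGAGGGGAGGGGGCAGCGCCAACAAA
Col4a2: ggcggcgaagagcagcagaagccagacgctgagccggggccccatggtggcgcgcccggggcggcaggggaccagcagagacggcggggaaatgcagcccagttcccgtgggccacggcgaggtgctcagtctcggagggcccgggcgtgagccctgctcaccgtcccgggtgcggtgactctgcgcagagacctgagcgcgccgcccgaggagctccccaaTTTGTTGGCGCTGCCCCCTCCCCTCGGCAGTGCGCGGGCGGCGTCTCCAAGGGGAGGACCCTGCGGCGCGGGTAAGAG

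Col4a1 was higher in KO by 0.94 ± 0.24 (adjusted p = 0.00583) in sparse and 1.48 ± 0.24 (adjusted p = 0.000168) in dense cells, and Col4a2 by 1.33 ± 0.23 (adjusted p = 0.000457) and 1.24 ± 0.23 (adjusted p = 0.000517). With spike-in scaling the sparse values turned to -0.59 for Col4a1 and -0.21 for Col4a2, neither of them called, while the dense ones stayed positive. With median scaling the sparse value of Col4a1 was 0.64 (adjusted p = 0.105) and with normexp 0.65 (adjusted p = 0.146). A second probe of each gene rose too, by 0.82 ± 0.25 and 1.16 ± 0.25 for Col4a1 and by 1.22 ± 0.26 and 1.22 ± 0.26 for Col4a2. These genes therefore went opposite to most collagens under the 75th percentile scaling.

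Col4a5 and Col4a6 encode minor type IV chains of kidney, lung and smooth muscle basement membranes and also lie head to head. Their windows are shown beside those of the first pair because these genes did not move together. The starts are 1343 bases apart and the windows share no bases, with capitals marking the motifs named above. Col4a5 lies at chrX:141475169-141475468 on the plus strand and Col4a6 at chrX:141474027-141474326 on the minus strand (GRCm38.p6).
Col4a5: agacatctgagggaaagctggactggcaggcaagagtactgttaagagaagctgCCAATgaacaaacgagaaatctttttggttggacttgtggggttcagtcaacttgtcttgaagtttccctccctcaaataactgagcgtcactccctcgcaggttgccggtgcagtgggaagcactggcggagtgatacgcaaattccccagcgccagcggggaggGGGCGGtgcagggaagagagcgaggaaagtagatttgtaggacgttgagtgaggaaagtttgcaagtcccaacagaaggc
Col4a6: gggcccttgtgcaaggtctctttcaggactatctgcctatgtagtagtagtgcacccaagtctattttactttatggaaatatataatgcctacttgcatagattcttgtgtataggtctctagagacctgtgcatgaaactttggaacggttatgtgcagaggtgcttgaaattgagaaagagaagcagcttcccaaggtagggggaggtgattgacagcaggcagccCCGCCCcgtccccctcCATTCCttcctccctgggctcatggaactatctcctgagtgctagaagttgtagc

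Col4a5 stood at 0.56, 0.50 and 0.034 in sparse rescue cells, at 1.77, 1.40 and 1.71 in dense rescue cells, at -2.56, -2.02 and -2.06 in sparse KO cells, and at -1.42, -1.40 and -1.55 in the dense ones. The lowest rescue culture lay above the highest KO culture at each density. Col4a5 was 5.98-fold lower in sparse KO cells, at -2.58 ± 0.21 (adjusted p = 6.71e-07), and 8.46-fold lower in dense KO cells, at -3.08 ± 0.21 (adjusted p = 1.11e-07). Col4a6 did not pass the test, at 0.25 ± 0.48 and 0.96 ± 0.54, the latter with 2 of 3 dense KO cultures because an outlier spot was dropped. A second Col4a6 probe was higher in KO, by 3.38 ± 0.40 (adjusted p = 2.87e-05) and 5.10 ± 0.40 (adjusted p = 5.9e-07), so its size and its call depend on the probe. Col4a4 passed no test (-0.80 ± 0.40 and -0.21 ± 0.40), and Col4a3 was well above background on no array.

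Type VIII chains form the hexagonal network beneath the corneal and vascular endothelium. Col8a1 stood at 5.09, 5.09 and 4.47 in sparse rescue cells, at 4.40, 4.89 and 3.95 in dense rescue cells, at 3.51, 3.70 and 3.52 in sparse KO cells, and at 0.035, 1.23 and 2.16 in the dense ones. The dense KO cultures were the lowest and the most spread. Col8a1 was lower in KO by -1.31 ± 0.43 (adjusted p = 0.0263) in sparse and -3.27 ± 0.43 (adjusted p = 3.99e-05) in dense cells, and a second probe gave -1.47 ± 0.24 and -2.64 ± 0.24. The sparse call was lost without the day 1 or day 2 rescue culture (adjusted p = 0.0762 and 0.0755) or the day 1 or day 3 KO culture (adjusted p = 0.0655 and 0.0627), at values from -1.20 to -1.28.

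Its partner Col8a2 went the other way and stood at -7.53, -7.86 and -7.03 in sparse rescue cells, at -5.41, -7.11 and -4.27 in dense rescue cells, at -2.16, -1.93 and -1.87 in sparse KO cells, and at 0.21, -0.80 and -0.79 in the dense ones. No sparse rescue culture and 2 of 3 dense rescue cultures were well above background, and all KO cultures were. Col8a2 was at least 15.8-fold higher in sparse KO cells (adjusted p = 6.15e-06) and higher by 5.14 ± 0.56 (adjusted p = 7.57e-06) in dense KO cells. It was the collagen with the largest rise. Col10a1, the network chain of growth cartilage, was well above background on no array.

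Of the 4 FACIT chains tested, 1 fell in KO when sparse and 2 when dense, beside 25.6% and 29.7% of all genes. The sparse share of 25% was near that of all genes. In sparse cells 3 of the 4 fell with spike-in scaling and 2 with quantile or median scaling. Col16a1, found on fibrils of skin and cartilage, stood at 4.0, 4.04 and 4.14 in sparse rescue cells, at 5.28, 5.29 and 5.31 in dense rescue cells, at 2.34, 2.45 and 2.67 in sparse KO cells, and at 2.45, 2.29 and 2.31 in the dense ones. The cultures of a group lay close together and the lines did not overlap. Col16a1 was lower in KO by -1.57 ± 0.15 (adjusted p = 2.96e-06) in sparse and -2.94 ± 0.15 (adjusted p = 8.37e-09) in dense cells. Its second probe gave -0.71 ± 0.34 (adjusted p = 0.105) and -2.85 ± 0.34 (adjusted p = 1.91e-05).

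Col9a3, a chain of the type IX molecule that coats cartilage fibrils, stood at -5.10, -4.24 and -5.19 in sparse rescue cells, at -2.0, -0.52 and -1.49 in dense rescue cells, at -5.99, -4.67 and -4.76 in sparse KO cells, and at -5.13, -6.18 and -5.04 in the dense ones. The dense rescue cultures stood above the 9 others, and 2 of 3 KO cultures at each density were well above background. Col9a3 was 17.3-fold lower in dense KO than in dense rescue cells, at -4.11 ± 0.47 (adjusted p = 1.16e-05), and was -0.30 ± 0.47 (adjusted p = 0.632) in sparse cells. Its partner Col9a2 passed no test between the lines (0.96 ± 0.42 and 0.0067 ± 0.42), and Col9a1 was well above background on 3 of 12 arrays. Col14a1 did not pass between the lines, at -0.77 ± 0.33 and 0.081 ± 0.33, and Col19a1 was well above background on no array.

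Of the 9 other chains tested, 4 fell (Col17a1, not measured there, among them) and 1 rose in sparse KO cells, and 7 fell in dense KO cells (8 and 0, and 3 with 2 rises, with spike-in scaling). Of all genes tested, 25.6% fell and 23.2% rose in sparse cells, and 29.7% fell in dense cells. Col7a1, which forms the anchoring fibrils beneath the epidermis, had the largest measured fall of the collagens in dense cells, where that of Col27a1 has only a lower limit. It stood at 4.76, 4.80 and 3.70 in sparse rescue cells, at 4.10, 4.49 and 3.40 in dense rescue cells, at 0.66, 0.19 and 0.099 in sparse KO cells, and at -2.33, -1.11 and -1.05 in the dense ones. Every KO culture lay at least 3 log2 units below every rescue culture at the same density. Col7a1 was 17.2-fold lower in sparse KO cells, at -4.11 ± 0.41 (adjusted p = 4.95e-06), and 45-fold lower in dense KO cells, at -5.49 ± 0.41 (adjusted p = 2.76e-07).

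Col17a1 and Col23a1 encode chains that span the cell membrane, the former part of epithelial hemidesmosomes. Col17a1 stood at -5.85, -6.47 and -5.37 in sparse rescue cells, at -4.08, -3.95 and -4.03 in dense rescue cells, at -7.11, -7.10 and -7.11 in sparse KO cells, and at -7.07, -7.86 and -7.39 in the dense ones. The dense rescue cultures were well above background and no other culture was. Col17a1 was at least 3.65-fold lower in dense KO than in dense rescue cells (adjusted p = 4.17e-07), and in sparse cells no fold change was given because neither group was above background. Col23a1 stood at -4.75, -4.49 and -4.37 in sparse rescue cells, at -4.59, -5.25 and -4.83 in dense rescue cells, at -7.39, -6.25 and -7.71 in sparse KO cells, and at -6.57, -8.22 and -6.21 in the dense ones. All rescue cultures and no KO culture were well above background. Col23a1 was at least 1.74-fold lower in sparse KO cells (adjusted p = 0.00086) and at least 2-fold lower in dense KO cells (adjusted p = 0.00241). With normexp these calls were lost, and the sparse values were 0.57 for Col17a1 and 0.26 for Col23a1.

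Col6a1 and Col6a2, partner chains of type VI beaded filaments around cells, fell in dense KO cells, by -0.92 ± 0.31 (adjusted p = 0.0204) and -0.75 ± 0.25 (adjusted p = 0.02), the latter reaching 0.027 with spike-in scaling. In sparse cells Col6a1 was -0.52 ± 0.31 and Col6a2 -0.26 ± 0.25, not called. The dense calls of both were lost without the day 3 rescue culture (adjusted p = 0.0896 for Col6a1 at -0.63 and 0.0769 for Col6a2 at -0.60). They were also lost without the day 3 KO culture (adjusted p = 0.0599 for Col6a1 at -0.86 and 0.0609 for Col6a2 at -0.69), and for Col6a1 without that of day 2 (-0.87, adjusted p = 0.0577). Col6a4, a further type VI chain, rose in sparse KO cells by 1.26 ± 0.42 (adjusted p = 0.0268), but was -0.28 with spike-in scaling, and its second probe fell by -0.85 ± 0.28 (adjusted p = 0.0249). The Col6a4 call was also lost without the day 1 rescue culture (1.27, adjusted p = 0.0579), the day 3 rescue culture (1.06, adjusted p = 0.0938) or the day 2 KO culture (0.67, adjusted p = 0.0792).

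Col15a1 and Col18a1 encode chains of basement membrane zones whose ends release fragments known to restrain vessel growth. Col18a1 was lower in KO by -0.84 ± 0.20 (adjusted p = 0.00393) in sparse and -1.33 ± 0.20 (adjusted p = 9.68e-05) in dense cells, and its second probe gave -1.14 ± 0.21 and -1.29 ± 0.21. Col15a1 fell in dense KO cells by -1.76 ± 0.38 (adjusted p = 0.00158), where 1 of 3 KO cultures was well above background. Col25a1, a membrane-spanning chain of neurons, passed no test between the lines (-0.18 ± 0.45 and 0.71 ± 0.45). Col13a1 was well above background on 1 of 12 arrays, and Col6a6, Col26a1 and Col28a1 on none.

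**Figure D3:**
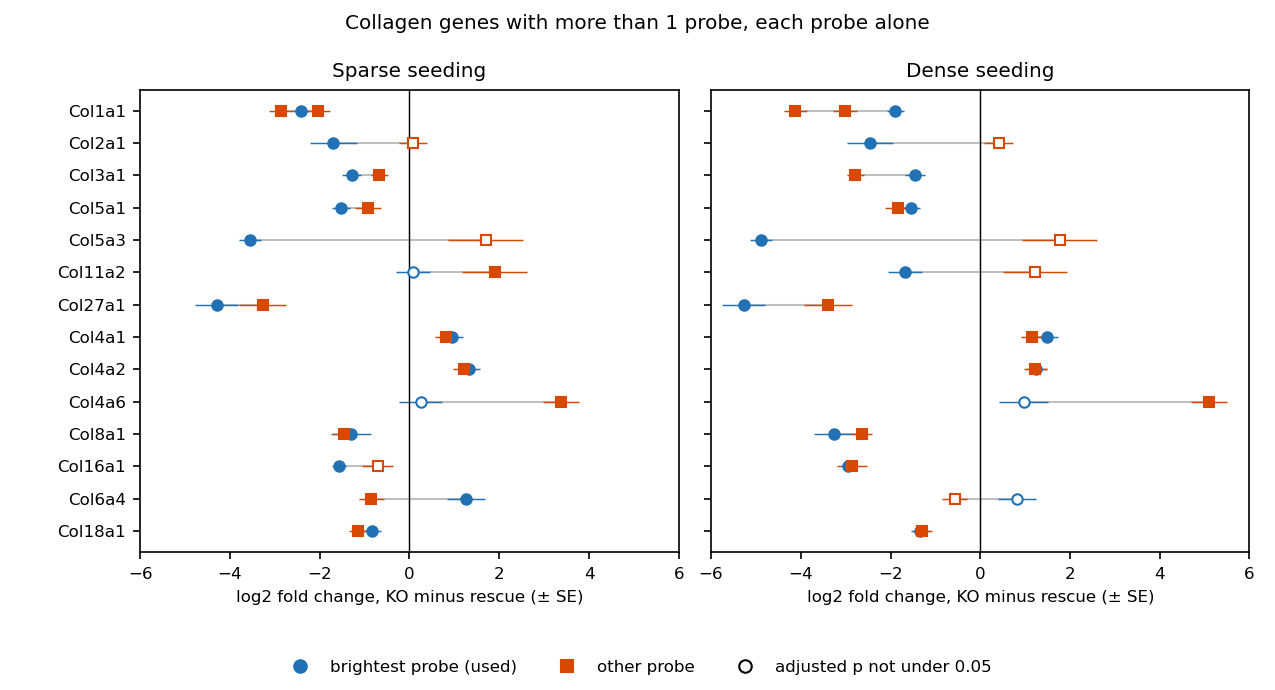
Log2 fold change of KO against rescue for each probe alone, for the 14 tested collagens with more than 1 kept probe, in sparse (left) and dense cells (right), with SE as bars. The probe used lies beside the others for genes such as Col4a2, Col8a1 and Col18a1. It lies far from them for Col5a3, Col4a6, Col2a1, Col11a2 and Col6a4. The 3 probes of Col1a1 were all lower in KO, but spanned 0.83 log2 units in sparse and 2.23 in dense cells.

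Of the 14 collagens with several kept probes, all probes fell in KO for 6 genes in sparse and 7 in dense cells. All probes rose for 2 genes at each density, which were Col4a1 and Col4a2. Col6a4 alone had probes called in opposite directions, in sparse cells. Each gene's values above come from the probe with the highest mean signal.

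The second comparison set dense against sparse cultures of the same line. In rescue cells 14 of 30 collagens rose and 2 fell, so that 16 were called, beside 40.0% of all genes tested (2366 rose and 2611 fell). In KO cells 6 rose and 3 fell, beside 5.44% and 5.47% of all genes. These counts also depend on the filter, which Col14a1, Col15a1 and Col17a1 passed through dense cultures alone and Col25a1 through sparse cultures alone. Of these, Col14a1 was counted as a rise in both lines and Col17a1 in rescue cells. Among the 13 collagens with a bright mean signal described above, 5 rose and 2 fell in rescue cells. In KO cells 4 of them rose and 3 fell. The median log2 fold change of the collagens was 0.71 in rescue cells, or 0.53 with bounds, and -0.052 in KO cells, beside -0.079 and -0.0029 over all genes. Groups did not overlap for 18 collagens in rescue and 14 in KO cells, where 50.7% and 38.2% of all genes did not. Spike-in scaling moved the median of all genes by 0.73 in rescue and 3.04 in KO cells, and gave 16 higher and 0 lower collagens in rescue cells and 29 higher and 0 lower in KO cells. Of all 12435 genes, that scaling called 3087 higher in rescue cells and 12371 higher in KO cells. Median scaling gave 8 higher and 2 lower collagens in KO cells, with a shift of 0.25. Marker sums moved with density as well. The smooth muscle sum was 185 to 219 in sparse and 66.8 to 85.8 in dense rescue cultures, and 264 to 328 and 115 to 232 in KO cultures. The chondrocyte sum given above was higher in dense than in sparse rescue cultures and lower in dense than in sparse KO cultures. Their part in the density results was not tested.

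Both lines showed a rise of Col3a1, Col4a5, Col6a1, Col6a2 and Col14a1 with density. Col14a1, a FACIT chain of dense connective tissue, stood at -6.23, -6.52 and -7.12 in sparse rescue cells, at -4.37, -4.40 and -4.11 in dense rescue cells, at -7.32, -7.28 and -7.58 in sparse KO cells, and at -3.68, -3.91 and -5.04 in the dense ones. All dense cultures of both lines were well above background and no sparse culture was. Col14a1 was at least 3.2-fold higher in dense rescue cells (adjusted p = 0.000203) and at least 2.17-fold higher in dense KO cells (adjusted p = 0.00095). With normexp neither call held (0.46 and 0.073).

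Col6a1 rose by 1.68 ± 0.31 (adjusted p = 0.00113) in rescue and 1.28 ± 0.31 (adjusted p = 0.0226) in KO cells, and Col6a2 by 1.59 ± 0.25 (adjusted p = 0.000394) and 1.1 ± 0.25 (adjusted p = 0.0178). The partner chains of type VI thus gave similar values in each line. Col3a1 rose by 1.29 ± 0.21 (adjusted p = 0.000517) in rescue and 1.12 ± 0.21 (adjusted p = 0.0074) in KO cells, although its second probe, at 1.66 ± 0.19 (adjusted p = 6.46e-05) in rescue, was -0.45 ± 0.19 (adjusted p = 0.138) in KO. Col4a5 rose by 1.26 ± 0.21 (adjusted p = 0.00055) in rescue and 0.76 ± 0.21 (adjusted p = 0.037) in KO cells. Of the calls in KO cells, those of Col6a1, Col6a2 and Col4a5 each depended on single cultures, with adjusted p up to 0.0885, 0.0691 and 0.142, all without the day 1 sparse KO culture, where the values were 1.0, 0.85 and 0.59.

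In rescue cells the call was passed by 9 further rises, those of Col2a1, Col5a3, Col8a2, Col9a3, Col11a1, Col11a2, Col16a1, Col17a1 and Col18a1, which were not called in KO cells. The largest measured rise was that of Col9a3, 11.4-fold higher at 3.51 ± 0.47 (adjusted p = 0.000151). Col2a1 rose by 2.05 ± 0.51 (adjusted p = 0.00787), with 1.29 ± 0.51 in KO cells, but its second probe was -0.27 ± 0.32 (adjusted p = 0.544) in rescue cells. For Col11a2, which rose by 1.44 ± 0.37 (adjusted p = 0.0098), the second probe was -0.41 ± 0.72 (adjusted p = 0.689). Col16a1 rose by 1.23 ± 0.15 (adjusted p = 7e-05), Col11a1 by 0.93 ± 0.22 (adjusted p = 0.00558) and Col18a1 by 0.81 ± 0.20 (adjusted p = 0.00699). The probes of Col16a1 were not both called, and lay 0.73 log2 units apart in rescue and 1.5 apart in KO cells. Both were above 0 in rescue and below 0 in KO cells. The second probe was the lower in each line, and by that probe the fall in KO cells was larger than the rise in rescue cells. Col17a1 was at least 3.23-fold higher (adjusted p = 0.000221). Col8a2 was called higher in dense rescue cells (adjusted p = 0.0195), although its groups overlapped. No sparse and 2 of 3 dense rescue cultures were well above background, so no size or lower limit is given for it. In KO cells Col8a2 was 1.52 ± 0.56.

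Among the rises in rescue cells, single cultures decided the calls of Col8a2 and Col5a3. Col8a2 was 1.21 without the day 3 dense culture (adjusted p = 0.0695), and the call was also lost without the day 1 or 2 sparse or the day 1 dense culture (adjusted p = 0.0505, 0.0635 and 0.0573). Col5a3 rose by 0.83 ± 0.24 (adjusted p = 0.0177), but not without the day 3 sparse, day 1 dense or day 3 dense culture (adjusted p = 0.0519, 0.057 and 0.0707).

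A fall with density was seen for the common type IV chains, at -0.97 ± 0.24 (adjusted p = 0.0066) for Col4a1 and -0.71 ± 0.23 (adjusted p = 0.0274) for Col4a2 in rescue cells. In KO cells Col4a2 fell by -0.80 ± 0.23 (adjusted p = 0.0459) and Col4a1 was -0.43 ± 0.24, not called. With spike-in scaling Col4a2 was 0.019 in rescue and 2.24 in KO cells. Both Col4a2 calls were lost with median scaling (adjusted p = 0.0536 and 0.196). The rescue call was also lost without the day 1 sparse, day 2 sparse or day 3 dense rescue culture, with adjusted p up to 0.0985. The KO call was also lost without any one of the sparse or dense KO cultures, with adjusted p up to 0.127 without the day 1 dense culture. It was lost too without the day 1 or day 2 sparse rescue culture.

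Col7a1 and Col8a1 fell with density in KO cells, by -1.82 ± 0.41 (adjusted p = 0.0179) and -2.43 ± 0.43 (adjusted p = 0.0065), and turned to 1.23 and 0.61 with spike-in scaling. In rescue cells they were -0.43 ± 0.41 and -0.47 ± 0.43, not called. Without the day 1 sparse or day 1 dense KO culture the Col7a1 call was lost, at -1.64 (adjusted p = 0.0733) and -1.40 (adjusted p = 0.0537). Col5a2 rose in KO cells by 0.73 ± 0.18 (adjusted p = 0.0278), a call lost without any one of the KO cultures (adjusted p up to 0.0958 without the day 1 sparse culture). The type I chains were called in neither line, with Col1a1 at -0.0018 ± 0.18 in rescue and 0.52 ± 0.18 in KO cells and Col1a2 at -0.088 ± 0.22 and -0.089 ± 0.22. One dimmer Col1a1 probe did fall in KO cells, by -1.89 ± 0.26 (adjusted p = 0.00205).

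The third comparison asked whether the response to density differed between the lines, by testing the difference of the responses. A total of 6 of 30 collagens were called, all with a lower response in KO than in rescue cells, beside 9.47% of all genes in that direction and 11.3% in the other. The median difference was -0.46 for the collagens and 0.044 for all genes. The largest measured difference was that of Col9a3, at -3.82 ± 0.67 (adjusted p = 0.00242), which rose by 3.51 in rescue cells and was -0.31 in KO cells. One of the 6 was Col17a1, whose KO response was not measured because no KO culture was well above background, and no value is given for it. Col17a1 passed the filter through dense rescue cultures alone, so the filter bears on this count as well. Col16a1 differed by -1.37 ± 0.21 (adjusted p = 0.00114) and Col5a3 by -1.32 ± 0.34 (adjusted p = 0.0188). For Col11a2 the difference was -1.75 ± 0.53 (adjusted p = 0.0366) and for Col8a1 -1.96 ± 0.61 (adjusted p = 0.0423).

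With spike-in scaling, which moved the median difference of all genes by 2.31, the values of these genes except Col9a3 turned positive, and 19 collagens were called higher and 0 lower. Of all 12435 genes, 10573 were called higher with that scaling. Col9a3 was then -1.5 (adjusted p = 0.0535). With median scaling 3 of the 6 were called, which were Col9a3, Col16a1 and Col17a1. The calls of Col11a2 and Col8a1 were also lost without single cultures, with adjusted p up to 0.0855 for Col11a2 and 0.0969 for Col8a1, both without the day 2 dense rescue culture. A second probe gave -2.14 ± 0.48 (adjusted p = 0.0111) for Col16a1 and -1.18 ± 0.34 (adjusted p = 0.0364) for Col8a1, while those of Col5a3 and Col11a2 gave 0.076 ± 1.18 (adjusted p = 0.974) and -0.68 ± 1.02 (adjusted p = 0.682). Col9a3 and Col17a1 had 1 kept probe each.

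**Figure D4:**
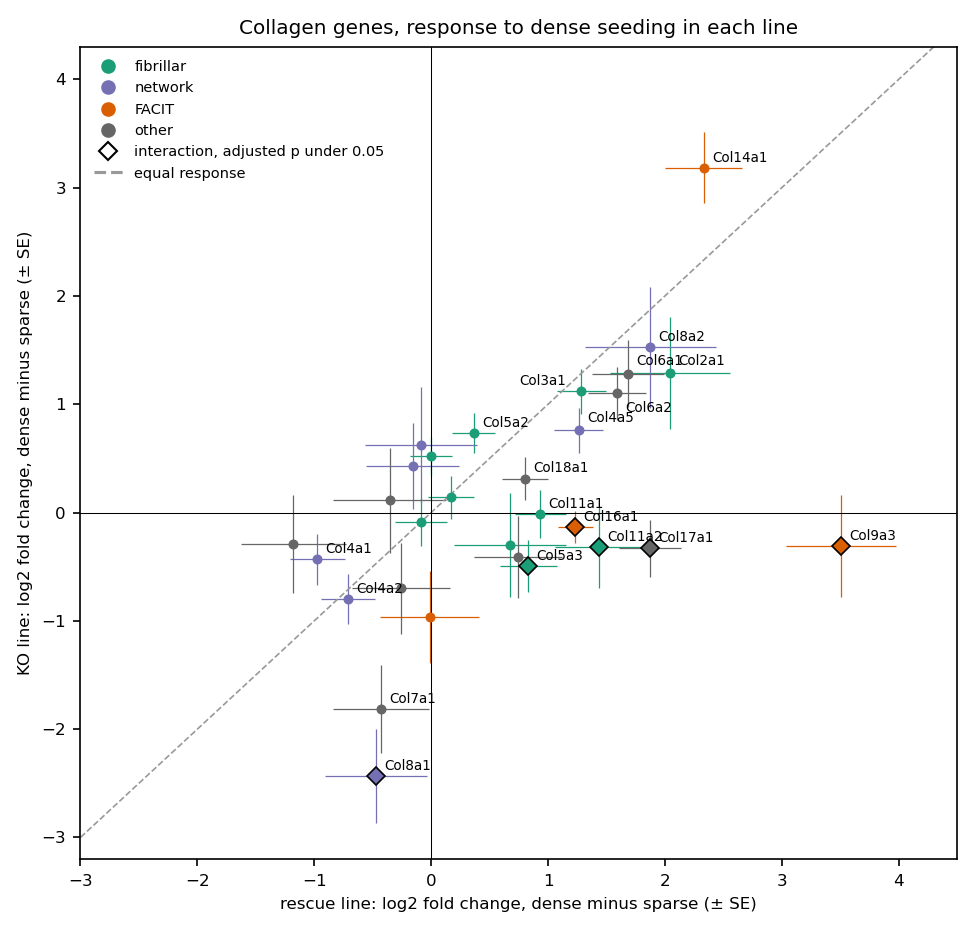
Log2 fold change of dense against sparse cells in the rescue line (horizontal) and the KO line (vertical) for the 30 tested collagens, with SE as bars and the line of equal response dashed. Diamonds mark the 6 genes whose responses differed with an adjusted p under 0.05, all below the dashed line, of which Col17a1 was not well above background in any KO culture. With spike-in scaling 5 of these lie above it, Col9a3 being the exception. Col3a1, Col6a1 and Col6a2 lie near the dashed line in the upper right, although a second Col3a1 probe was below 0 in KO cells. Col14a1 lies above the dashed line there, and no sparse culture of either line was well above background for it.

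The enzymes and partners that collagens depend on were described from gene lists, named here with counts and the median log2 fold change of each list. The counts of every list stand beside these shares of all genes tested. In KO, 25.6% fell and 23.2% rose in sparse cells, and 29.7% fell and 31.9% rose in dense cells. With density 40.0% were called in rescue cells, and 5.44% rose and 5.47% fell in KO cells. The response was called higher in KO for 11.3% and lower for 9.47%. With spike-in scaling 9374 of 12435 genes were called in sparse KO cells, 583 of them higher, and 6705 in dense ones, 5187 of them higher. With density it called 3405 genes in rescue cells, 3087 of them higher, and 12373 in KO cells, 12371 of them higher. The response was then called higher in KO for 10573 genes. Of 31 tested genes for collagen folding, modification and processing, 19 fell and 2 rose in sparse KO cells, and 13 fell and 2 rose in dense KO cells, with medians of -1.19 and -0.46. Spike-in scaling gave 29 lower and 0 higher in sparse cells, and 9 lower and 2 higher in dense cells, where the median turned to 0.32. The largest fitted fall was that of Pcolce2, an enhancer of procollagen cleavage, which was at least 177-fold lower in sparse and at least 33.8-fold lower in dense KO cells (adjusted p = 9.85e-10 and 1.13e-08). The largest rise was that of Colgalt1, which adds galactose to collagen, by 0.76 ± 0.21 (adjusted p = 0.00977) and 1.43 ± 0.21 (adjusted p = 8.35e-05), the former at -0.78 with spike-in scaling (adjusted p = 0.122). With density, 6 of these 31 genes rose and 4 fell in rescue cells, where 40.0% of all genes were called, and 5 rose in KO cells (7 and 2, and 31 rises, with spike-in scaling). Adamts2, which removes the amino-terminal propeptide, rose most in rescue cells (1.67 ± 0.29 (adjusted p = 0.000757)), Pcolce2 fell most there (-2.95 ± 0.35 (adjusted p = 6.76e-05)), and Sec23a, a coat protein of the vesicles that carry procollagen, rose most in KO cells (1.11 ± 0.21 (adjusted p = 0.00897)). The responses of 6 genes were higher in KO than in rescue and those of 2 lower. The former include Pcolce2, which was well above background in no KO culture, so that its KO response was not measured. Bmp1, the carboxy-terminal procollagen protease, had the largest lower response (-1.13 ± 0.32 (adjusted p = 0.028)), but was at 1.18 with spike-in scaling (adjusted p = 0.101).

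Of 6 tested collagen receptors and uptake genes, 4 fell in sparse KO cells, and 3 fell and 1 rose in dense KO cells, with medians of -1.32 and -0.87. Itga11, whose integrin binds type I collagen, was at least 57.9-fold lower in sparse KO cells (adjusted p = 1.7e-08) and lower by -8.52 ± 0.37 (adjusted p = 2.42e-09) in dense ones. Itga1, another collagen-binding integrin chain, rose in dense KO cells by 2.25 ± 0.49 (adjusted p = 0.00171). With density 2 receptors rose in rescue cells, Itga11 most (2.24 ± 0.37 (adjusted p = 0.000628)), and in KO cells Mrc2, a receptor that takes up collagen, rose (0.81 ± 0.22 (adjusted p = 0.0376)), while 0 of 6 were called for the difference between the lines. With spike-in scaling 6 of 6 rose with density in KO cells, as did 12371 of all 12435 genes. For the difference 5 of 6 were then called higher, as were 10573 of all genes. The median between the lines in dense cells was -0.09 with that scaling.

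Of 4 tested collagen-cleaving enzymes, 2 fell in sparse and 3 in dense KO cells, with medians of -0.59 and -3.86. Mmp14, a membrane-bound collagenase, led in sparse cells (-1.53 ± 0.38 (adjusted p = 0.0054)). Mmp13, a secreted collagenase, was at least 10.7-fold lower in dense KO than in dense rescue cells (adjusted p = 3.6e-08). With density 3 of the 4 rose in rescue cells, Mmp13 by at least 11.3-fold (adjusted p = 1.38e-06), and 0 of 4 were called in KO cells, whereas spike-in scaling gave 4 of 4 higher there. The responses of 3 were called lower in KO than in rescue, and 1 with spike-in scaling. The 3 include Mmp13, which was well above background in no KO culture, so that its KO response was not measured.

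Of 11 tested regulators of fibril assembly, 4 rose and 4 fell in sparse KO cells, and 2 rose and 7 fell in dense KO cells, with medians of 0.10 and -1.95. With spike-in scaling 1 rose and 6 fell in sparse cells, where the median was -1.43, and 3 rose and 6 fell in dense cells. Postn, a matricellular protein that promotes cross-linking, was at least 242-fold lower in sparse and at least 632-fold lower in dense KO cells (adjusted p = 6.2e-10 and 2.28e-10). The fibril-binding proteoglycan genes Dcn, in sparse cells (4.77 ± 0.26 (adjusted p = 2.14e-08)), and Fmod, in dense cells (3.16 ± 0.29 (adjusted p = 1.93e-06)), rose most. With density 7 of 11 rose in rescue cells (with spike-in scaling 9, and 11 in KO cells), Lum, another fibril-binding proteoglycan, by at least 11-fold (adjusted p = 5.02e-05). In KO cells 1 rose (Fmod, 1.78 ± 0.29 (adjusted p = 0.0049)) and 1 fell (Fn1, fibronectin, -0.88 ± 0.18 (adjusted p = 0.0113), but 2.16 with spike-in scaling, adjusted p = 2.7e-05). The responses of 5 were called lower in KO than in rescue, whereas spike-in scaling gave 2 lower and 5 higher. The 5 include Lum, which was well above background in no KO culture, so that its KO response was not measured.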

How the data were processed

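Total RNA (100 ng) of 12 cultures was labelled with Cy3 and hybridised to one-colour 4x44K arrays. Per the file headers, the authors' Feature Extraction 10.5.1.1 (Agilent Feature Extraction 10 in the submitters' processing notes) gave spot intensity on a linear scale, background-subtracted within the array. The deposited value table holds log2 values whose scaling is not given in the sources used here. It was used only in an alternative fit.

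Labels gave each array's group and day. Outlier spots (79 to 265 of 43379 per array) were dropped, with 0 saturated. Log2 processed signals of a probe were averaged and the array's 75th percentile subtracted. Probes were named by RefSeq transcript (24375 of 41174 with 1 gene, the rest left out). A probe had to be measurable (well above background) in all 3 cultures of some group, and each gene was represented by its brightest such probe over the 12 arrays. The linear model of limma (version 3.58.1, with R 4.3.3) had 1 mean per group, 8 residual and 3.58 prior degrees of freedom, Benjamini-Hochberg over 12435 genes per comparison, adjusted p threshold 0.05. The fit was tested on simulated data. With 3 cultures against 3, an exact permutation test of 1 gene cannot go below p = 0.1, and none was run. Precision is limited by how many arrays there are.

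Where no culture of a group was measurable, a probe has only a bound, computed against the higher of its own signal and the lowest signal counted as measured on each array. Values in every culture are given for collagens called with an absolute log2 fold change of 2 or more, and for Col1a1, Col1a2 and Col3a1. From each other gene list the largest called rise and fall are named, with no value for a response that was not measured. Collagens, lists and tests were chosen with earlier results of these data known.

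The replicate number is the day, which the labels state. Deviations from the group means correlated above 0.1 in 11 of 18 same-day pairs of arrays (-0.037 to 0.295). The day entered as a block only as an alternative. Both densities of a line and day share 1 of 5 slides. Alternatives were quantile, median and spike-in scaling, normexp (offset 50), no filter on dim probes, the mean over probes, day or slide as block, the deposited table, and leaving out each culture. Normexp used the median signal and median background, since mean signals were not in the files used.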

Additional observations from a re-analysis of the deposited data

Results flagged for a closer look

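For 6 collagens the response to density differed between the lines by a direct test of that difference (limma, adjusted p under 0.05), and none of these held under every scaling. As log2 differences, KO response minus rescue response, the values were -3.82 for Col9a3, -2.21 for Col17a1, -1.96 for Col8a1, -1.75 for Col11a2, -1.37 for Col16a1 and -1.32 for Col5a3. All were negative on each of the 3 days, from which the calls themselves were made. The value of Col17a1 is not a measured difference, since it was well above background in dense rescue cultures alone. Beside them, 9.47% of all genes tested were called in this direction and 11.3% in the other.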

How the results depend on the processing

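Of 73 collagen calls over the 5 comparisons, 69 held with quantile scaling, 67 with median scaling, 51 with spike-in scaling, 37 with normexp background correction, 68 with no filter on dim probes and 65 with the mean over kept probes. With the day as replicate block 73 held and 7 were gained, which raised the collagens called higher in dense KO cells from 3 to 5 and changed no other call from called to not called. The slide as a random block kept 73 and as a fixed block 68. The fixed block gave 5 higher in dense KO cells and 1 higher for the difference of responses, and rests the line comparison on the day 2 slide.

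Counts of collagens called higher and lower moved as follows. In sparse KO cells (4 higher, 15 lower) spike-in scaling gave 1 and 25, and normexp 2 higher. In dense KO cells (3 higher, 20 lower) spike-in scaling gave 6 and 12, no filter 5 higher and normexp 13 lower. For density in rescue cells (14 higher, 2 lower) normexp gave 8 and 0, quantile scaling 1 lower and spike-in scaling 0 lower. For density in KO cells (6 higher, 3 lower) spike-in scaling gave 29 and 0 and normexp 0 and 0. For the difference of responses (0 higher, 6 lower) spike-in scaling gave 19 and 0, median scaling 3 lower and normexp 1 lower. Over all 12435 genes, spike-in scaling called 12371 higher for density in KO cells and 10573 higher for the difference. Leaving out 1 culture at a time gave 3 to 5 higher and 13 to 16 lower in sparse KO cells, 3 to 5 and 18 to 20 in dense KO cells, 12 to 15 and 1 to 3 for density in rescue cells, 2 to 8 and 1 to 3 for density in KO cells, and 0 to 1 and 4 to 8 for the difference. A group reduced to 2 cultures shared the spread of the other groups.

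Called values that reversed were, with normexp in sparse KO cells, 0.081 for Col11a1, 0.57 for Col17a1 and 0.26 for Col23a1. With spike-in scaling they were -0.59 for Col4a1, -0.21 for Col4a2 and -0.28 for Col6a4 in sparse KO cells, 0.027 for Col6a2 in dense KO cells, 0.019 for Col4a2 with density in rescue cells, and 2.24 for Col4a2, 1.23 for Col7a1 and 0.61 for Col8a1 in KO cells. The differences of responses became 0.56 for Col11a2, 0.94 for Col16a1, 0.11 for Col17a1, 0.99 for Col5a3 and 0.35 for Col8a1. The cause was not tested.

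The authors' deposited value table called 0 of 30 collagens in each comparison, with all its columns and limma (1 of all genes in KO density, 0 otherwise). Reversed there were Col15a1 (0.0057), Col4a2 (-0.06) and Col6a1 (0.05) in dense KO cells and Col5a3 (0.088) for the difference. Its sparse day 3 rescue column correlated at 0.874 with its own array and 0.982 with the sparse day 3 KO array, and the other day 3 columns likewise matched the other line. The table and the array files with days 1 and 2 only were therefore added, a choice made after seeing the data. They kept 57 and 53 of the 73 calls. The table then gave 0 lower with density in rescue cells, and the array files 9 higher and 1 lower there, 2 higher in KO cells and 1 higher for the difference. Dim collagens are limited by signal over background, since 20 of 39 were well above it on all 12 arrays and 6 on none.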
